A study of Homo sapiens with 5 samples.

Results

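ATF3 and p53 binding was examined at 10 genes of the YAP and TEAD pathway out of 20163 protein-coding genes. The genes were chosen by name for their place in the pathway, and every peak from 20 kb upstream of the transcription start site (TSS) to the end of the gene was taken as a peak of that gene. They comprise the target genes *CCN1* (also known as *CYR61*), *CCN2* (also known as *CTGF*) and *ANKRD1*, the regulators *AMOTL2*, *LATS2* and *AJUBA*, the co-activators *YAP1* and *WWTR1* (which encodes TAZ), and the transcription factors *TEAD1* and *TEAD4*. Their windows covered 1030.2 kb in all and held 39 of 33681 ATF3-Ctrl peaks, 79 of 70231 ATF3-CPT peaks, 0 of 2149 ATF3-KO peaks, 5 of 9082 p53-CPT peaks and 3 of 7768 p53-KO peaks on the main chromosomes.

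YAP and TAZ are co-activators that lack a DNA-binding domain and reach DNA through TEAD proteins, which recognize a short element containing GGAATG. The Hippo kinase cascade, which ends in LATS1 and LATS2, phosphorylates YAP and TAZ and keeps them out of the nucleus, while several of the genes that YAP and TAZ switch on encode inhibitors of the same pathway. ATF3 is a stress-induced bZIP protein of the ATF/CREB family that binds ATF/CRE and AP-1 elements, and AP-1 and TEAD elements often lie in the same enhancers.

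All 5 libraries were made by chromatin immunoprecipitation with sequencing (ChIP-seq) in HCT116, a human colon cancer cell line, and each condition had a single library without replicates. The ATF3 antibody was used on ATF3-WT cells given DMSO (ATF3-Ctrl), on ATF3-WT cells exposed for 4 h to 1.5 µM camptothecin (ATF3-CPT; CPT is a topoisomerase I poison that breaks DNA), and on ATF3-KO cells given DMSO (ATF3-KO). p53 was precipitated from p53-WT cells given the same dose of CPT (p53-CPT) and from p53-KO cells given DMSO (p53-KO), so these last libraries differed in both genotype and treatment. The ATF3-KO cells came from homologous recombination with an adeno-associated virus, the p53-KO cells were an existing line, and each comparison below is between single libraries rather than between conditions. In such bulk material, binding in more cells and more binding per cell cannot be told apart.

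The libraries held 12947516 (ATF3-Ctrl), 15457013 (ATF3-CPT), 12820520 (ATF3-KO), 3169743 (p53-CPT) and 1984941 tags (p53-KO). Peak heights are given as the deposited normalized tag count, which is scaled to 10000000 tags for each library, with an exact Poisson 95% interval where one is printed. All intervals here cover counting error only. Those of shares (Wilson intervals) also treat peaks as independent of each other, although many lie in the same gene. A peak needed at least 9 tags at separate positions in either ATF3 library from ATF3-WT cells, which corresponds to a normalized tag count of 6.95 in ATF3-Ctrl and 5.82 in ATF3-CPT (a few listed peaks lie slightly under these values, since the score that the threshold applies to and the normalized tag count were counted separately). It also had to stand out from its surroundings, so a site missing from a list was below the peak caller's limits and not necessarily unbound. ATF3-CPT had 12.8% of its tags in peaks and ATF3-Ctrl had 5.6%. The part of this difference and of the deeper sequencing in the counts that follow was not tested.

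The sequences under 6 of the ATF3 peaks are given here because they carry the cores that are counted in a later comparison. They were read from GRCh37 (hg19) on the strand of the gene, 5′ to 3′, over the whole width of the ATF3-CPT peak. Capitals mark exact matches to the TEAD core (GGAATG or CATTCC), the ATF/CRE core (TGACGTCA) or the AP-1 core (TGACTCA or TGAGTCA), each of which was searched on both strands. The strongest site of *CCN2* (chr6:132272563-132272687, minus strand) lies just upstream of the TSS. That of *ANKRD1* (chr10:92681038-92681162, minus strand) is also in the promoter. The *AJUBA* site (chr14:23446996-23447120, minus strand) is in intron 2, and the *YAP1* site (chr11:101982819-101982943, plus strand) is in intron 1. The intronic *TEAD1* site (chr11:12746014-12746138, plus strand) had the highest ATF3-CPT peak of that gene outside its promoter, and the intronic *WWTR1* site (chr3:149364106-149364230, minus strand) had the largest ratio of the shared sites and was picked for that after its value was seen.
*CCN2* promoter: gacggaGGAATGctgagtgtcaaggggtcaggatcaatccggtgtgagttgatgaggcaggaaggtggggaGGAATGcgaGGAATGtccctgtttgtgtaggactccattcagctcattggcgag
*ANKRD1* promoter: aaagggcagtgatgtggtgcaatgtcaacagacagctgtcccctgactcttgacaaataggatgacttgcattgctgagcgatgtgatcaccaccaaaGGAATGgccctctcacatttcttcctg
*AJUBA* intron: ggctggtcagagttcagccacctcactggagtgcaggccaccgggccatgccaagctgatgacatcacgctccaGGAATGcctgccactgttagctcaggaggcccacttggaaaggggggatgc
*YAP1* promoter: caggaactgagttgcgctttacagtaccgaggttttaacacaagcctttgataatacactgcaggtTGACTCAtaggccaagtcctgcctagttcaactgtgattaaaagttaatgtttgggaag
*TEAD1* intron: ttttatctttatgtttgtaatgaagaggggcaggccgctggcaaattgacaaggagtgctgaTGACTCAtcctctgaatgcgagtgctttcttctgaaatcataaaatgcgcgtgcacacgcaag
*WWTR1* intron: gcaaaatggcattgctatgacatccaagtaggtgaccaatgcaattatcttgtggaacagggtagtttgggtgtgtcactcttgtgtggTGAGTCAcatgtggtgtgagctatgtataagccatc

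The *CCN2* sequence holds 3 TEAD cores, which begin at bases 7, 72 and 81 of the run, and neither an AP-1 nor an ATF/CRE core. The *ANKRD1* and *AJUBA* sequences each hold 1 TEAD core, which begins at base 99 and at base 75 respectively. With 1 mismatch allowed, the *AJUBA* sequence also holds an ATF/CRE match, and the *CCN2* and *ANKRD1* sequences each hold an AP-1 match. The remaining 3 sequences each hold 1 AP-1 core. A match describes the letters of a peak and does not show which protein was bound there.

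ATF3 peaks were found at 9 of the 10 genes in ATF3-Ctrl and at all 10 in ATF3-CPT, and *CCN2* was the gene without a peak in ATF3-Ctrl. Of all protein-coding genes, 65.1% had an ATF3-Ctrl peak and 81% had an ATF3-CPT peak in a window of the same kind, so having a peak was common. None of the 10 genes had a peak in ATF3-KO, beside 11.4% of all genes. Of the 39 ATF3-Ctrl peaks of these genes, 34 had a score of at least 11 tags, which was the threshold of the ATF3-KO list. The share of all ATF3-Ctrl peaks with such a score was not counted, so this count does not set the genes apart. Counted per 100 kb of window, the genes held 3.79 ATF3-Ctrl peaks and 7.67 ATF3-CPT peaks, against 1.78 and 3.58 over the windows of all genes. This density was uneven, and in ATF3-CPT it ranged from 1.97 at *TEAD4* to 21 at *CCN1*. *AJUBA* (3.19) and *ANKRD1* (3.45) were also below the 3.58 of all genes, and the other genes were above it. The number of ATF3-CPT peaks per ATF3-Ctrl peak was 2.03 for these genes and 2.09 for all peaks, so the proportion was about the same.

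The individual genes differed widely in their numbers of peaks. *TEAD1*, which has the longest window (290.3 kb), held 11 ATF3-Ctrl and 29 ATF3-CPT peaks. *YAP1* (143.0 kb) held 4 and 13, and *WWTR1* (239.5 kb) held 11 and 17. *AMOTL2* went from 1 peak to 6 in a window of 40.1 kb, whereas *LATS2* had 4 in both lists and *ANKRD1* had 1 in both. *CCN1* had 4 and 5 peaks, *TEAD4* had 1 and 2, and *AJUBA* was the only gene of the 10 with fewer peaks in ATF3-CPT (1) than in ATF3-Ctrl (2). Over all protein-coding genes, 63.4% had more ATF3-CPT than ATF3-Ctrl peaks.

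**Figure D1:**
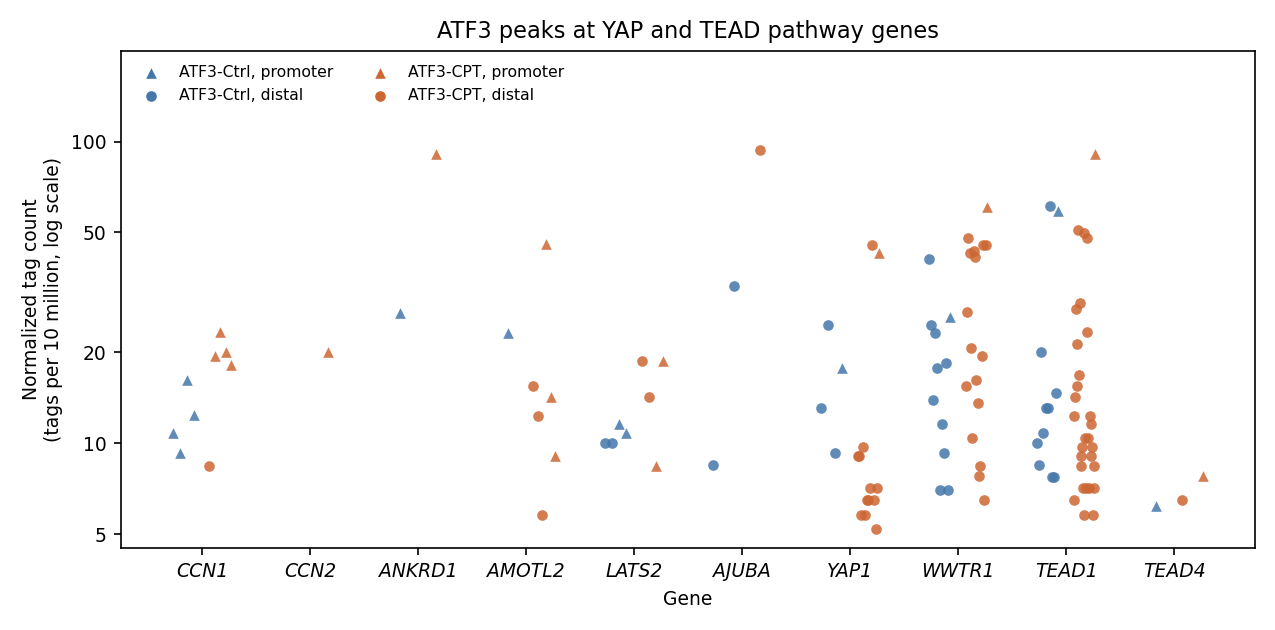
Normalized tag count (tags per 10000000, log scale) of every ATF3 peak of the 10 genes in ATF3-Ctrl (blue) and ATF3-CPT (orange), with promoter peaks as triangles and distal peaks as circles (1 library each, no error bars). The ATF3-CPT peaks of *AJUBA* (93.8), *ANKRD1* (91.2) and the *TEAD1* promoter (91.2) stand above the others, while most of the ATF3-CPT peaks of *YAP1* and *TEAD1* lie at the low end.

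Overlapping peaks of ATF3-Ctrl and ATF3-CPT (by at least 1 bp) were joined into sites, giving 87 sites in all. Of these, 31 were shared by both lists, 48 were found in ATF3-CPT only and 8 in ATF3-Ctrl only. A site was called promoter when its centre was within 2 kb of the TSS of any protein-coding gene and distal otherwise, which put 16 sites in promoters and 71 in distal positions. Of the promoter sites, 3 were nearest to the TSS of a neighbour rather than of the gene itself, namely 2 sites upstream of *CCN1* near the start of *DDAH1* and 1 site upstream of *WWTR1* near the start of *COMMD2*. Conversely, 6 of the distal sites were within 2 kb of the start of another annotated transcript.

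The *CCN2* promoter gave the simplest pattern of the target genes. CCN2 is a secreted matricellular protein and a widely used readout of YAP activity. Its window held 1 ATF3 peak, centred 113 bp upstream of the TSS. The normalized tag count there was 20.1 (95% interval 13.6 to 28.5) in ATF3-CPT, and ATF3-Ctrl had no peak. The nearest ATF3-Ctrl peak was 40332 bp away. This was the site with 3 TEAD cores printed above.

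CCN1, a secreted protein of the same family, had promoter peaks in both libraries. The site 68 bp upstream of its TSS had a normalized tag count of 16.2 in ATF3-Ctrl and 20.1 in ATF3-CPT, a ratio of 1.24 (95% interval 0.688 to 2.26). At the intronic site 946 bp downstream the values were 12.4 and 18.1. Each of these sites held 1 TEAD core, and the intervals of both ratios included 1. Further upstream, near the start of *DDAH1*, the highest promoter peak of the window (chr1:86042657-86042781) had 9.3 in ATF3-Ctrl and 23.3 in ATF3-CPT, a ratio of 2.51 (1.28 to 5.3). The 1 distal site of *CCN1* was an ATF3-CPT peak of 8.4 at position -11411 bp from the TSS, with 1 AP-1 core and no overlapping ATF3-Ctrl peak.

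*ANKRD1*, which encodes an ankyrin repeat protein found in the nucleus and the sarcomere, had 1 shared site 256 bp upstream of its TSS. Its normalized tag count was 27.0 (18.8 to 37.6) in ATF3-Ctrl and 91.2 (76.8 to 108) in ATF3-CPT. The ratio of 3.37 (2.32 to 5.04) was the largest of the 11 shared promoter sites of the 10 genes, and the ATF3-CPT peak was higher than 98.6% of all peaks in that list. *ANKRD1* and *CCN2* therefore both had a single ATF3 site in the promoter that held TEAD cores, in 1 case present in both libraries and in the other only in ATF3-CPT.

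Among the regulators, *AJUBA* had the highest ATF3-CPT peak of the 10 genes. AJUBA is a LIM-domain protein that binds LATS kinases and restrains them. Its site in intron 2, 4702 bp downstream of the TSS and 112 bp from the start of a shorter transcript, had a normalized tag count of 33.2 (24 to 44.7) in ATF3-Ctrl and 93.8 (79.2 to 110) in ATF3-CPT. The ratio was 2.82 (2 to 4.07). A second *AJUBA* peak (8.5) was present 971 bp away in ATF3-Ctrl only.

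*AMOTL2* encodes a protein of the angiomotin family, which holds YAP at cell junctions. Its shared site (chr3:134092603-134092727), 1656 bp downstream of the gene's outermost TSS and 26 bp from the start of another transcript, had 23.2 in ATF3-Ctrl and 45.9 in ATF3-CPT, a ratio of 1.98 (1.28 to 3.15). This peak held 1 ATF/CRE core, and none of its other peaks did. The other 5 ATF3-CPT peaks of *AMOTL2* had no overlapping ATF3-Ctrl peak and ranged from 5.8 to 15.5, so they were all lower than the shared one. The highest of them (15.5) was in intron 9.

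LATS2, the kinase that phosphorylates YAP and TAZ, had the most even pattern. The site 5 bp upstream of the *LATS2* TSS had 10.8 in ATF3-Ctrl and 18.8 in ATF3-CPT, a ratio of 1.74 (0.888 to 3.55). In intron 1, 1207 bp downstream, the values were 11.6 and 8.4, a ratio of 0.726 (0.318 to 1.64). The distal sites had 10.0 and 14.2 at 8136 bp upstream, and 10.0 and 18.8 in intron 2 (chr13:21591616-21591740). All 4 sites of *LATS2* were shared, and the intervals of all 4 ratios included 1.

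The co-activator genes *YAP1* and *WWTR1* differed in their distal sites. The *YAP1* site in intron 1, 1703 bp downstream of the TSS, had 17.8 in ATF3-Ctrl and 42.7 in ATF3-CPT, a ratio of 2.4 (1.48 to 4.05). Its highest distal site, in intron 3 (chr11:102049153-102049277), had 24.7 and 45.3, a ratio of 1.83 (1.19 to 2.88). Both held 1 AP-1 core. The third shared site, 11055 bp downstream, had 13.1 and 9.1. The other 10 distal ATF3-CPT peaks of *YAP1* ranged from 5.2 to 9.7, close to the limit of the list, and 1 ATF3-Ctrl peak of 9.3 in intron 4 (chr11:102071180-102071306) had no ATF3-CPT counterpart.

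*WWTR1* had several strong distal peaks instead. Its highest distal ATF3-CPT peak (chr3:149293495-149293619, intron 2) was 482 bp from the start of another annotated transcript. This peak differed little between the libraries, with 40.9 in ATF3-Ctrl and 47.9 in ATF3-CPT, a ratio of 1.17 (0.811 to 1.7). The site at chr3:149364106-149364230, in the same intron, had 9.3 (4.79 to 16.2) in ATF3-Ctrl and 45.3 (35.3 to 57.2) in ATF3-CPT. This ratio of 4.89 (2.63 to 9.91) was the largest of the 31 shared sites. A peak of 24.7 (chr3:149293976-149294102), at the start of an annotated transcript, was listed in ATF3-Ctrl only. However, a peak of 42.7 in ATF3-CPT lay 148 bp from it, centre to centre. The site near the start of *COMMD2* (chr3:149470344-149470468) had 26.3 in ATF3-Ctrl and 60.8 in ATF3-CPT, a ratio of 2.32 (1.55 to 3.54).

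*TEAD1* and *TEAD4*, which encode DNA-binding partners of YAP and TAZ, differed widely in their peak heights. The *TEAD1* promoter site, 76 bp upstream of the TSS, had the highest promoter peak of the 10 genes in ATF3-Ctrl (58.7, 46.2 to 73.5) and reached 91.2 (76.8 to 108) in ATF3-CPT. The ratio of 1.55 (1.17 to 2.08) was nevertheless below the 2.55 (1.62 to 4.13) of the intronic site printed above, which had 20.1 and 51.1. The intron 3 site 95803 bp downstream had 13.1 and 49.8, a ratio of 3.79 (2.22 to 6.85). In the same intron, the highest ATF3-Ctrl peak of all 10 genes (61.0, 48.3 to 76) was at 47.9 (37.6 to 60.1) in ATF3-CPT, a ratio of 0.785 (0.564 to 1.09). Sites of this 1 gene therefore lay on both sides of a ratio of 1. Its 19 distal sites found in ATF3-CPT only ranged from 5.8 to 16.8, and its 1 site found in ATF3-Ctrl only (chr11:12893391-12893517, intron 5) had 14.7.

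*TEAD4* had only low peaks. A peak of 6.2 in ATF3-Ctrl was 31 bp downstream of the TSS and held 3 TEAD cores. In ATF3-CPT it was absent, and a peak of 7.8 with 1 AP-1 core was found 358 bp away (chr12:3068823-3068947). A distal ATF3-CPT peak of 6.5 was 14479 bp upstream. With 8 to 12 tags each, these 3 peaks were close to the limits of the lists, and no difference between the libraries was detectable at this depth.

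**Figure D2:**
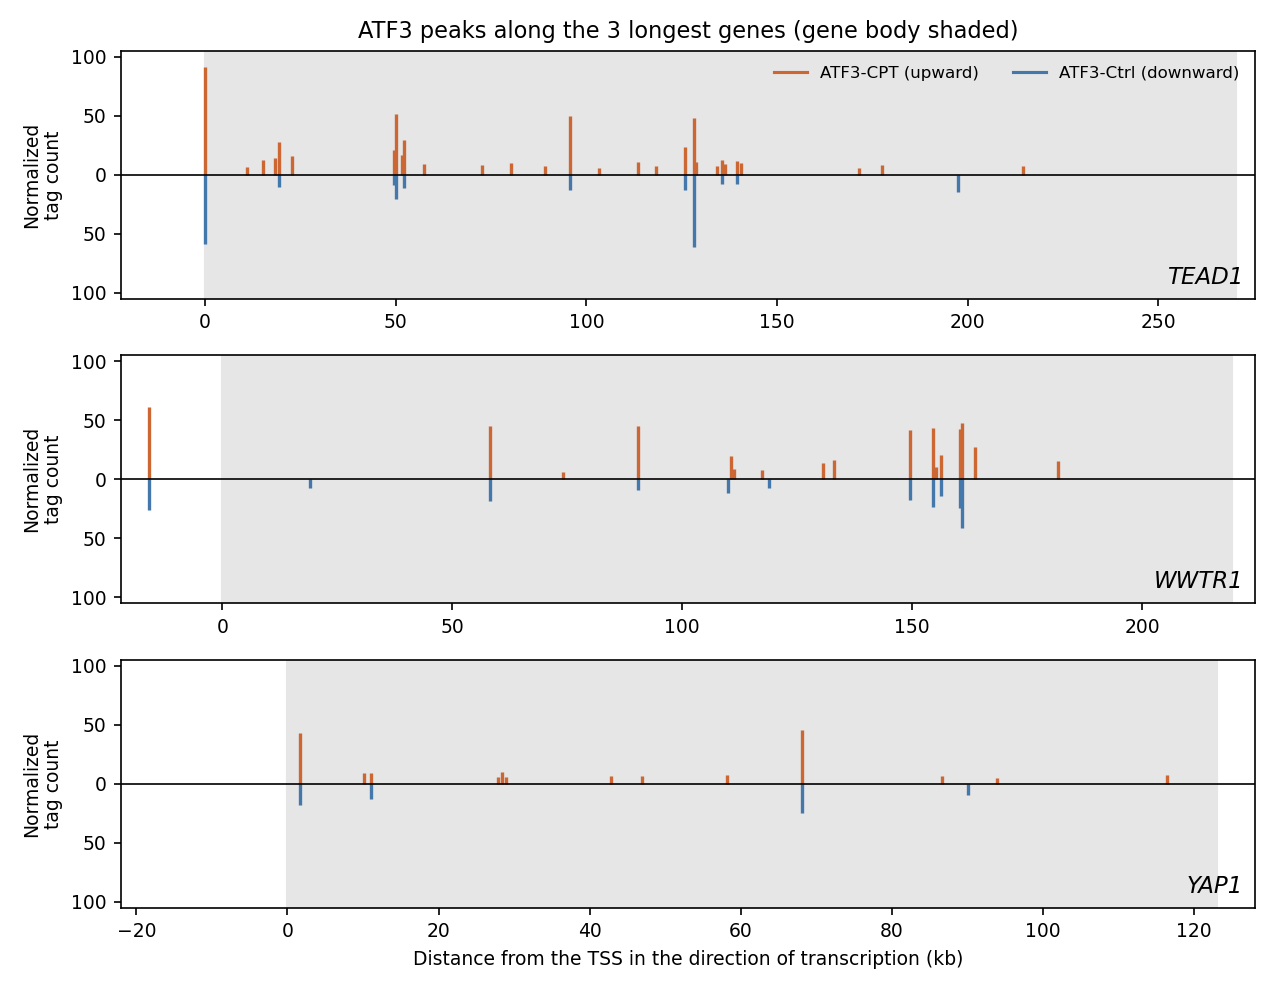
Position of ATF3 peaks along *TEAD1*, *WWTR1* and *YAP1*, in kb from the TSS in the direction of transcription, with the normalized tag count of ATF3-CPT drawn upward and that of ATF3-Ctrl drawn downward (gene body shaded, 1 library each). These 3 genes hold 62 of the 71 distal sites, and most lines without a partner on the other side are short.

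The distal sites were then compared before and after CPT over all 10 genes. Of 64 distal ATF3-CPT peaks, 20 overlapped an ATF3-Ctrl peak, or 31.2% (Wilson 95% interval 21.2% to 43.4%), beside 36% of all distal ATF3-CPT peaks. Of 27 distal ATF3-Ctrl peaks, 20 had an ATF3-CPT peak on them, or 74.1% (55.3% to 86.8%), beside 79.6% of all. Both shares of the genes were therefore near the background. *TEAD1*, *WWTR1* and *YAP1* supplied 17 of the 20 shared distal sites and 39 of the 44 found in ATF3-CPT only, so these counts describe mainly 3 long genes.

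At promoters, 11 of 15 ATF3-CPT peaks overlapped an ATF3-Ctrl peak, or 73.3% (48% to 89.1%), beside 49.7% of all promoter ATF3-CPT peaks. In the other direction, 11 of 12 ATF3-Ctrl peaks were also found in ATF3-CPT, or 91.7% (64.6% to 98.5%), beside 81% of all. The exceptions among the ATF3-CPT peaks were *CCN2*, 2 sites of *AMOTL2* and *TEAD4*. The shared promoter sites include the 3 near the starts of the neighbours *DDAH1* and *COMMD2*.

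The distal sites found only in ATF3-CPT were weak. Their median normalized tag count was 8.4 (range 5.2 to 42.7), the same as the median of 8.4 over all 37385 such sites. The 20 shared distal sites had a median of 35.2 in ATF3-CPT (range 9.1 to 93.8), against 23.9 over all 21044 shared distal sites, and a median of 13.1 in ATF3-Ctrl, against 11.6. A score under 15 tags was found for 26 of the 44 sites in ATF3-CPT only, beside 22267 of all 37385 such sites, a similar share. Among the shared sites it was found for 1 of the 20, and this was not counted over all shared sites. Shared sites had to pass the peak caller's limits in both libraries, so part of this contrast follows from how the classes were defined. The 7 distal sites found in ATF3-Ctrl only ranged from 7.0 to 24.7.

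At the shared sites, ATF3-CPT had the higher value in most cases. The ratio was above 1 at 10 of 11 promoter and 18 of 20 distal sites, and its interval lay wholly above 1 at 6 and 11 of them. Most of all shared sites had a ratio above 1 as well, with a lower quartile of 0.984 at promoters and 1.22 at distal positions. The share of all shared sites with an interval above 1 was not counted. With a ratio of at least 1.5 taken as higher, 8 of 11 promoter sites were higher, beside 42.4% of all shared promoter sites, and 15 of 20 distal sites were higher, beside 66% of all. No site was lower by the same ratio at promoters, beside 5.27% of all, and none was lower at distal positions, beside 6.3%. The median ratio of the genes was 1.79 at promoters (all sites 1.34) and 1.87 at distal sites (all sites 1.98). The 11 promoter sites include the 3 near the starts of the neighbours *DDAH1* (1.79 and 2.51) and *COMMD2* (2.32), so the promoter values do not describe the promoters of the 10 genes alone.

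The ratios were also read against those of all shared sites. Over all 26906 shared sites the median ratio was 1.8, a shift of 0.85 on the log2 scale, and most of these sites were distal. Relative to that shift, the median ratio of the genes was 0.995 at promoter and 1.04 at distal sites, 1 promoter and 4 distal sites remained at least 1.5 times higher, and 1 promoter and 3 distal sites were lower by that ratio. Before centring, the lower and upper quartiles of the ratio over all shared sites were 1.13 and 2.64. The shares of all shared sites past the same centred limits were not counted, so these counts do not set the genes apart. The 5 sites that remained higher were *ANKRD1* (1.87), *AJUBA* (1.57), the *WWTR1* site at 90333 bp (2.71), the *TEAD1* site at 95803 bp (2.1) and the *TEAD1* site at 19381 bp (1.54).

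Against the median of their own class, an alternative chosen after the data had been seen, the promoter and distal medians lay on either side of 1. The median ratio of the genes was then 1.34 at promoter sites and 0.944 at distal sites. At promoters 9 of 11 sites lay above the median of all shared promoter sites, and at distal positions 9 of 20 lay above that of all shared distal sites. The promoter sites that remained at least 1.5 times higher were *ANKRD1* (2.52), *CCN1* at -3725 bp (1.87), *YAP1* at 1703 bp (1.79) and *WWTR1* at -15905 bp (1.73). Of these, the *CCN1* site is near the start of *DDAH1* and the *WWTR1* site near that of *COMMD2*. The distal sites that remained higher were *WWTR1* at 90333 bp (2.47) and *TEAD1* at 95803 bp (1.92). By the same ratio, 1 promoter and 3 distal sites were lower. Before centring, the quartiles of the ratio over all shared sites were 0.984 and 1.97 at promoters and 1.22 and 2.78 at distal positions. The shares of all shared sites past these centred limits were not counted either.

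**Figure D3:**
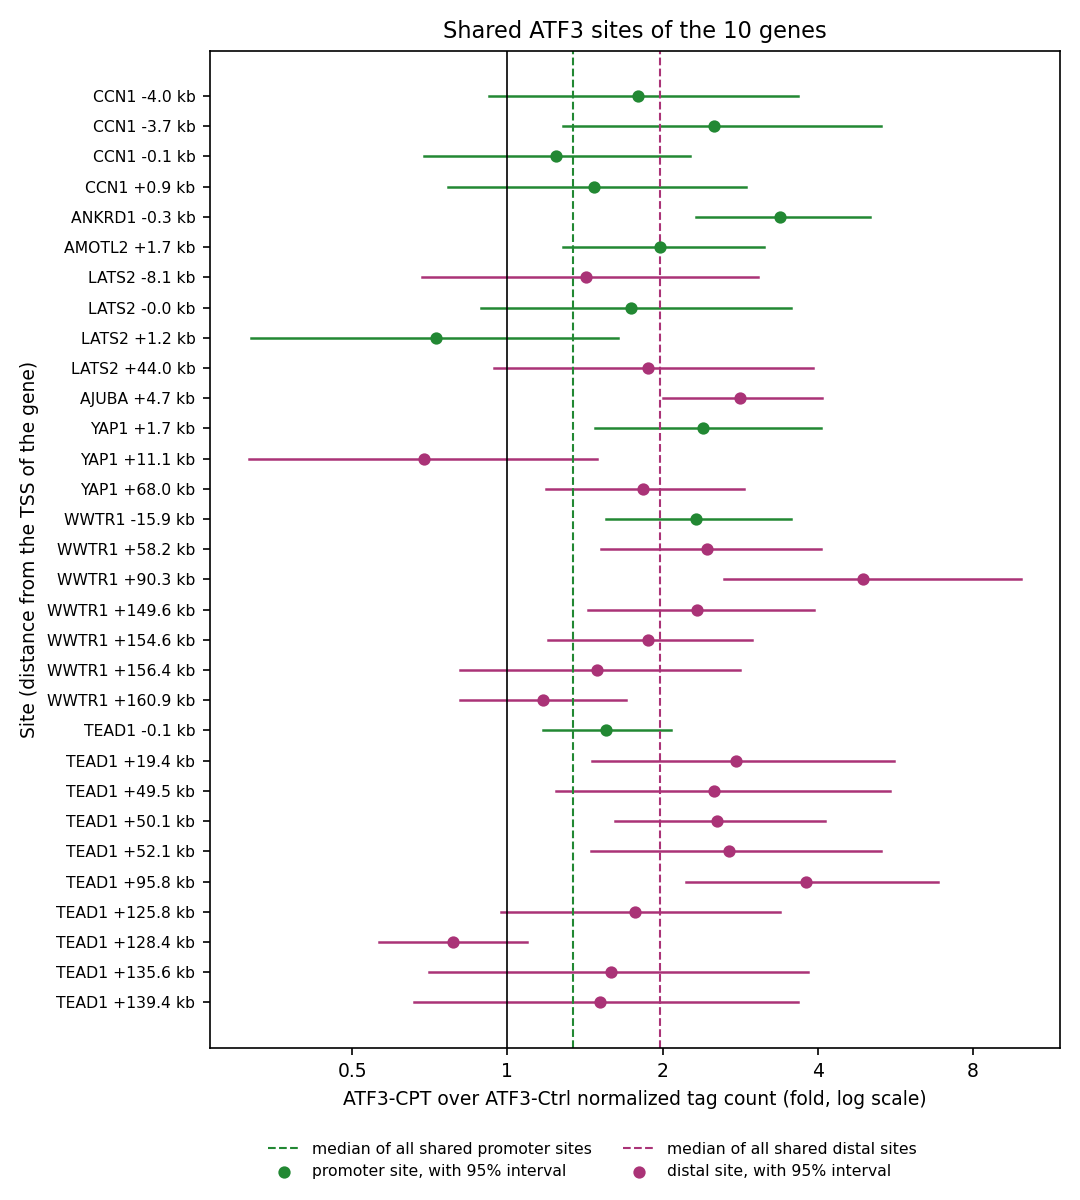
Ratio of the normalized tag count in ATF3-CPT to that in ATF3-Ctrl (log scale) at the 31 shared sites, labelled by gene and distance from its TSS in kb, with 95% intervals from counting error and dashed lines at the medians of all shared promoter (1.34) and distal (1.98) sites. The intervals of 6 sites lie above the median of their class (*ANKRD1*, *AJUBA*, *YAP1* at 1703 bp, *WWTR1* at -15905 and 90333 bp, *TEAD1* at 95803 bp), those of 3 lie below it (*YAP1* at 11055 bp, *WWTR1* at 160944 bp, *TEAD1* at 128354 bp) and those of 22 include it.

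The TEAD core was frequent in the promoter peaks of these genes. It was found in 7 of 15 promoter ATF3-CPT peaks (46.7%), at *CCN1* (2 peaks), *CCN2*, *ANKRD1*, *AMOTL2* and *LATS2* (2 peaks), beside 7.01% of all promoter ATF3-CPT peaks. The AP-1 core was found in 2 of 15, at *YAP1* and *TEAD4*, beside 14% of all. The ATF/CRE core was found in 2 of 15, including *AMOTL2*, beside 4.01% of all. Several of the genes were chosen as known targets of YAP and TEAD, so the share of TEAD cores is given as a description only.

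At distal sites the picture was different. The AP-1 core was found in 18 of 64 distal ATF3-CPT peaks (28.1%), beside 45.9% of all. With 1 mismatch allowed the shares were closer, at 68.8% and 76.8%. Most of these distal peaks lie in *TEAD1*, *WWTR1* and *YAP1*, so they are not independent of each other. The exact AP-1 core was found in 9 of the 20 shared sites, beside 47% of all shared distal sites, but in 9 of the 44 sites found in ATF3-CPT only, beside 45.3%. The TEAD core was found in 10 of 64 (15.6%), beside 14.2%, and the ATF/CRE core in 1 of 64, beside 0.883%. No ATF3-CPT peak of the 10 genes held both an AP-1 and a TEAD core, beside 5.59% of all distal and 1.36% of all promoter ATF3-CPT peaks. With 1 mismatch allowed in the AP-1 core, both were found in 2 of 15 promoter peaks (all 3.53%) and 4 of 64 distal peaks (all 10.6%). The counts at promoters are too small to give a direction.

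**Figure D4:**
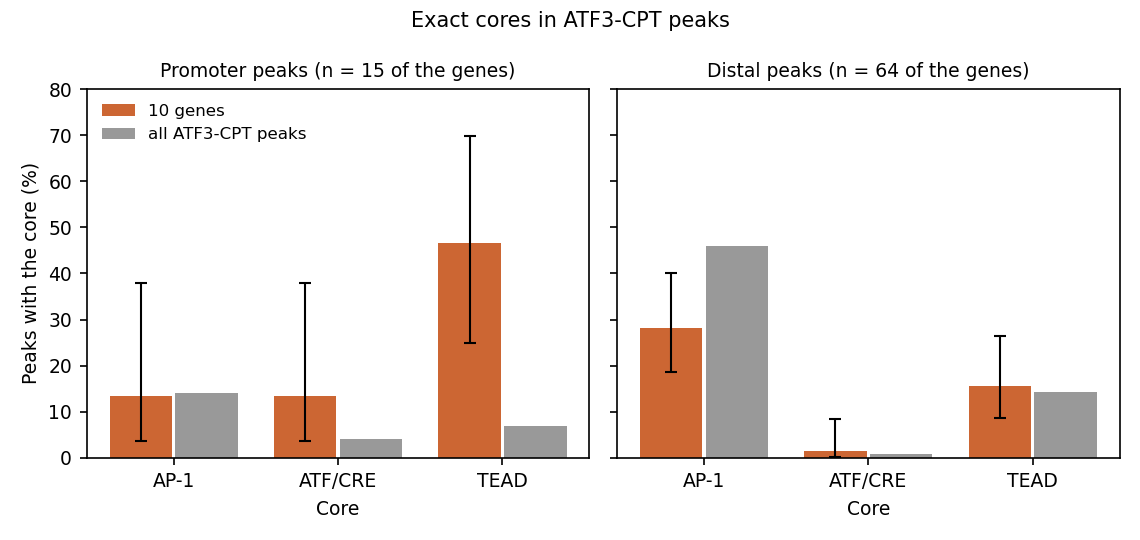
Share of ATF3-CPT peaks (%) that hold an exact AP-1, ATF/CRE or TEAD core, for the 10 genes (orange, with Wilson 95% intervals) and for all ATF3-CPT peaks (grey), in promoters and at distal positions. The TEAD bar of the genes is at 46.7% in promoters against 7.01% for all peaks, and the AP-1 bar is at 28.1% at distal positions against 45.9%.

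The windows of these genes held 5 p53-CPT and 3 p53-KO peaks. In p53-CPT, 4 of the 10 genes had a peak, beside 21.8% of all genes, and in p53-KO 2 of 10 had one, beside 17.4%. The peak at -194 bp from the *CCN1* TSS had a normalized tag count of 82.0 (53.6 to 120) in p53-CPT and 120.9 (77.5 to 180) in p53-KO, and it overlapped ATF3 peaks of both ATF3-Ctrl and ATF3-CPT. The *TEAD1* peak in intron 3 (chr11:12836191-12836509) had 104.1 (71.7 to 146) in p53-CPT and 282.1 (213 to 366) in p53-KO, and it overlapped an ATF3-CPT peak. A second *TEAD1* peak, at -5341 bp from the TSS, had 47.3 and 65.5 and overlapped no ATF3 peak. These 3 peaks were thus found in p53-KO cells as well, with values no lower than in p53-CPT.

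The other p53-CPT peaks were near *AJUBA* (25.2, at -291 bp from the TSS) and in *WWTR1* (28.4). The *WWTR1* peak was 62470 bp downstream of the outermost TSS but upstream of the canonical transcript. Both peaks lacked a p53-KO counterpart. However, both were below the normalized tag count of 30.2, which corresponds to the threshold of 6 tags in the shallower p53-KO library. None of the 5 p53-CPT peaks held the p53 motif with 3 mismatches or fewer, the closest matches having 4 or 5, whereas 20.3% of all p53-CPT peaks did. Of all p53-CPT peaks, 60.9% overlapped a p53-KO peak.

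Further genes of the pathway were counted in the same way. Of 20 genes that encode other Hippo components and cofactors, 16 had an ATF3-Ctrl peak, 19 had an ATF3-CPT peak and 0 had an ATF3-KO peak, beside 65.1%, 81% and 11.4% of all genes. More ATF3-CPT than ATF3-Ctrl peaks were found at 18 of them, beside 63.4% of all. *STK3*, which encodes the Hippo kinase MST2, had 10 peaks in ATF3-Ctrl and 25 in ATF3-CPT. *PTPN14*, which encodes a phosphatase that binds YAP, had 11 and 23, and *WWC1*, which encodes the scaffold protein KIBRA, had 12 and 18. The windows of these 3 genes were long, from 200.7 to 591.6 kb.

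Of 16 further target genes of YAP and TAZ, 14 had an ATF3-Ctrl peak, 13 had an ATF3-CPT peak and 1 had an ATF3-KO peak, beside the same shares of all genes. More ATF3-CPT than ATF3-Ctrl peaks were found at 12 of them, again beside 63.4%. *ASAP1*, which encodes a GTPase-activating protein for ARF proteins, had 11 and 29, *MYOF*, which encodes myoferlin, had 11 and 19, and *CRIM1*, which encodes a transmembrane protein, had 10 and 14. Counted per 100 kb of window, the Hippo genes held 2.43 ATF3-Ctrl and 4.86 ATF3-CPT peaks and the further target genes held 1.93 and 4.02, against 1.78 and 3.58 over the windows of all genes.

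The summed peak heights of *CCN1* and *CCN2* over the 5 lists were compared with those of all protein-coding genes, by the Euclidean distance of log2(sum + 10). *CCN1* had sums of 48.7 in ATF3-Ctrl, 89.3 in ATF3-CPT, 0.0 in ATF3-KO, 82.0 in p53-CPT and 120.9 in p53-KO, and the closest genes were *SERGEF* (distance 0.186), *PPP2R2B* (0.363) and *PLSCR2* (0.434). *CCN2* had a sum of 20.1 in ATF3-CPT and 0.0 in the other lists. This pattern was not particular to it, since 13 other genes had exactly the same sums, of which *CCDC97*, *CISD3* and *CRX* come first in the alphabet.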

How the data were processed

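ATF3 and p53 ChIP-seq in HCT116 cells was analysed from 5 deposited peak lists, 1 per condition. The authors aligned reads to hg19 (GRCh37) with BWA 0.6.1 and called peaks in each library with findPeaks of HOMER 4.1 (versions from the submitters' processing notes). Per the file headers, no input library was used, at most 1 tag per bp was counted, and peaks passed a false discovery rate of 0.001, 4.0-fold over the surrounding 10 kb and a local Poisson p of 1e-04. The normalized tag count, a signal that the authors scaled to 10000000 tags, was used as deposited, and the deposited findPeaks score is a number of tags at separate positions. The authors also deposited the focus ratio (a fraction), the fold over the local region, its p-value and a clonal fold change, which were not used.

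Whole tags were recovered from normalized tag count and library total (largest deviation from a whole tag 0.0769). Ratios were taken on tags scaled to library totals, with an exact conditional 95% interval; shares have Wilson intervals. Genes were those of GENCODE release 44 mapped to GRCh37, with the outermost annotated start as TSS and intron numbers from the canonical transcript. Peaks on chromosomes 1 to 22, X and Y were used. A shared site took its position from the ATF3-CPT peak. The sequence of 1 further peak is not reported here. Motifs were exact words on both strands, except the p53 motif (at most 3 mismatches). Python 3.11.15, scipy 1.17.1 and pysam 0.24.0 were used, and the scripts passed 11 of 11 checks on simulated data. With 1 library per condition, no test between conditions was possible and no p-value is given.

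The 10 genes and the pathway lists were chosen with earlier results of these data known. Within each gene, the sites named were the highest promoter and distal ATF3-CPT peaks and the highest ATF3-Ctrl peak absent from ATF3-CPT, and further sites were named after their values were seen. From the pathway lists the 3 genes with the most ATF3-CPT peaks were named, and for *CCN1* and *CCN2* the 3 genes at the smallest distance. Alternatives covered the overlap required, the score, peaks found in ATF3-KO, the promoter width and TSS set, the window, the scaling, the fold and the motif search.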

Additional observations from a re-analysis of the deposited data

How the results depend on the processing

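Each library stood for 1 condition, so the ratios compare libraries, and peaks with a score under 9 tags (ATF3-Ctrl and ATF3-CPT), 11 (ATF3-KO), 7 (p53-CPT) or 6 (p53-KO) were not detectable. The p53 libraries were the shallowest. Of the summary values over the 10 genes, 59 alternatives left the value within its limits, 19 moved it and 2 reversed it. With a score of at least 15 required, there were 37 distal ATF3-CPT and 17 distal ATF3-Ctrl peaks, and 49 and 25 peaks in all; fewer peaks enter by construction. At a ratio of 2, 4 promoter and 9 distal sites were higher, where the median ratio of all shared sites was 1.34 at promoters and 1.98 at distal positions. The shares of all shared sites at this ratio, or past the limits after the centring below, were not counted. With the findPeaks score in place of the normalized tag count, 1 distal site was lower. With 1 mismatch allowed, 68.8% of distal ATF3-CPT peaks had an AP-1 core (all 76.8%) and 10.9% an ATF/CRE core (all 13.8%). Centring on the median of all shared sites gave a median of 0.995 at promoter and 1.04 at distal sites, with 1 and 4 sites higher and 1 and 3 lower. Under the same centring the ratio of 11 sites went from above 1 to below 1. Of these, 5 had been under 1.5, and the other 6 were *CCN1* at -4027 bp (0.995), *LATS2* at -5 bp (0.962) and *TEAD1* at -76 bp (0.861), 125786 bp (0.983), 135649 bp (0.882) and 139440 bp (0.836). Centring on the shared sites of the same class, added after the data had been seen, gave medians of 1.34 (promoter) and 0.944 (distal), with 4 and 2 sites higher and 1 and 3 lower. It took 10 sites from above 1 to below 1, of which 4 had been under 1.5 and the other 6 were *LATS2* at 44047 bp (0.944), *YAP1* at 68037 bp (0.925), *WWTR1* at 154619 bp (0.945) and *TEAD1* at 125786 bp (0.896), 135649 bp (0.804) and 139440 bp (0.762). The findPeaks score and the scaling to tags outside peaks left the ratio of all 31 sites within its interval. No paired analysis was possible because each condition had 1 library.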

Other observations

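Some values on the sites found in 1 list fit no comparison above. The AP-1 cores in the distal sites found in ATF3-CPT only were also counted by the height of the peak. Of those with a score under 15, 6 of 26 held the core, beside 39.6% of 22267 such sites in the genome, and of those with a score of at least 15, 3 of 18 held it, beside 53.7% of 15118. Many of these sites lie in 3 genes, so they are not independent of each other.

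Several sites found in 1 list had a peak of the other list close by. Besides the *WWTR1* pair 148 bp apart and the *TEAD4* pair 358 bp apart, an ATF3-Ctrl peak of 11.6 in intron 2 of *WWTR1* was 715 bp from an ATF3-CPT peak of 19.4, and the ATF3-Ctrl peak of *AJUBA* was 971 bp from the shared site. Of the 8 sites found in ATF3-Ctrl only, 1 had an ATF3-CPT peak centre within 250 bp.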
